A study of Arabidopsis thaliana with 6 samples.

Results

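Transcript levels in rosette leaves of the Arabidopsis thaliana mutant flu and of its wild type were compared after 60 min of renewed light. The comparison rests on 2 of the study's 6 ATH1 arrays, the one of flu and the one of Ler at 60 min. It takes in each probe set, the array's controls aside, that on at least 1 of the 6 arrays was as bright as the median of all signals. That rule kept 13062 of 22746 probe sets. The genes just inside it were AT2G14650 and ATIM, with a highest signal of 185.1 for both. KOM, with 184.8, and ETP2, just under the limit, lay outside. Differences are given on the scale log2(signal + 50), as flu minus Ler, so that a difference of 1 is 2-fold.

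Ler is the ecotype Landsberg erecta, and flu carries the allele flu1-1 in that ecotype. Plants of both genotypes grew on soil for 3 weeks in continuous light, stood in darkness for 8 h, and were harvested before bolting after 30 min, 60 min or 2 h of renewed light. Each sample held leaves of 5 to 6 plants, and the RNA of 2 separate experiments was combined before the target was made, so each genotype and time has 1 array and the spread between experiments is not in the values. Differences at 60 min therefore have no replicate and no test, and the number of arrays limits their precision. All plants had been dark and lit again and no array of dark plants was analysed here, so differences that existed before the light and differences that followed it cannot be told apart.

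In darkness FLU, a plastid protein encoded in the nucleus, restrains the first steps of tetrapyrrole synthesis. Without it, leaves accumulate protochlorophyllide, the chlorophyll precursor that plants convert with the help of light. In the light, the excess pigment that is not converted passes energy to oxygen, and singlet oxygen, a short-lived reactive form, appears within the plastid. The study was set up to follow nuclear gene expression after this release.

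After 60 min of light, genes of several stress and immune signalling families, such as calcium sensors and WRKY factors, stood far above wild type in flu, and the differences in the other direction were fewer and smaller. STZ, the gene of a C2H2 zinc finger repressor active in many stress responses, had a signal of 8279 in flu and 283 in Ler. LHCB4.3, a gene of the minor light-harvesting protein CP29, had 926 in flu and 2593 in Ler. In all, 799 probe sets were at least 2-fold higher in flu (6.12% of those compared) and 188 at least 2-fold lower (1.44%). Past 4-fold the counts were 292 higher (2.24%) and 5 lower (0.0383%), and past 8-fold they were 120 (0.919%) and 0. At 1.5-fold the counts came closer together, with 1373 higher (10.5%) and 1139 lower (8.72%). Wild type alone gives the scale of array noise and of change with time: the Ler arrays of 30 min and 60 min were at least 2-fold apart for 159 probe sets (1.22%), and those of 60 min and 2 h for 183 (1.40%).

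The median difference over all probe sets compared was -0.08. Every array was scaled to the same trimmed mean, so a centre close to 0 says nothing about a shift of all transcripts. Of all probe sets compared, 59.0% had a negative difference. The spread of the difference, as a robust SD over probe sets, was 0.37 between the genotypes at 60 min and 0.30 between the Ler arrays of 30 and 60 min. The actin control probe sets had a 3' to 5' signal ratio of 7.05 on the Ler array of 60 min, the highest of the 6 arrays, and 4.62 on the flu array (lowest of the 6, 3.38). For GAPDH the ratio was 0.988 in Ler and 0.914 in flu, and for ubiquitin 1.81 and 1.42. The part of these ratios in the results was not tested.

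**Figure D1:**
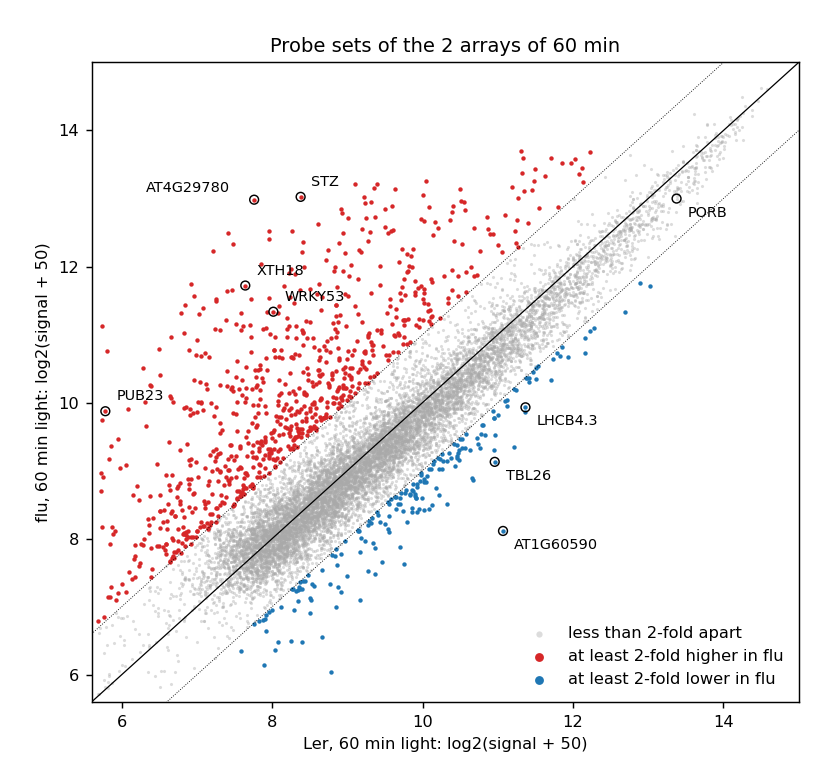
Each point is a probe set, with its level in Ler on the horizontal and in flu on the vertical axis, both as log2(signal + 50) after 60 min of light. Points at least 2-fold higher in flu (799, red) reach much farther from the diagonal than those at least 2-fold lower (188, blue), and PORB, a bright gene, is marked near the diagonal at -0.38.

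The named probe sets with the largest differences were low in every Ler array and high in every flu array. AT4G29780 had signals of 129, 167 and 104 in Ler and 5832, 8042 and 3462 in flu, in order of time, and its difference at 60 min was 5.22. AT1G05575 had 117, 98.0 and 32.6 in Ler against 2325, 4728 and 4403 in flu, with a difference of 5.01 at 60 min. AT2G24600 had 143, 129 and 182 against 2662, 5124 and 1978, with a difference of 4.85. In none of these genes did a flu array overlap the Ler arrays.

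STZ itself had 308, 283 and 267 in Ler and 6741, 8279 and 6607 in flu, a difference of 4.64 at 60 min and a ratio of the signals of 29.3. Its level in flu was thus high at 30 min already and highest at 60 min. AR781 had 386, 198 and 244 in Ler and 3799, 5366 and 3490 in flu, a difference of 4.45. DLAH, a gene of an acyl-hydrolysing lipase, had 87.0, 50.5 and 57.7 against 1061, 1954 and 581, a difference of 4.32. Both had their highest flu signal at 60 min.

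Further genes among the 15 largest differences are known in the files only by their locus. They were AT2G22880 (4.96), AT2G25735 (4.29), AT2G32030 (4.28), AT3G04640 (4.26), AT3G01830 (4.23), AT3G02840 (4.20) and AT1G76600 (3.93). AT2G22880 had Ler signals of 3.97, 5.97 and 3.65, near the floor of the array, so that its difference depends on the offset. The remaining members of the 15, PUB23 and XTH18, are described with their families.

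**Figure D2:**
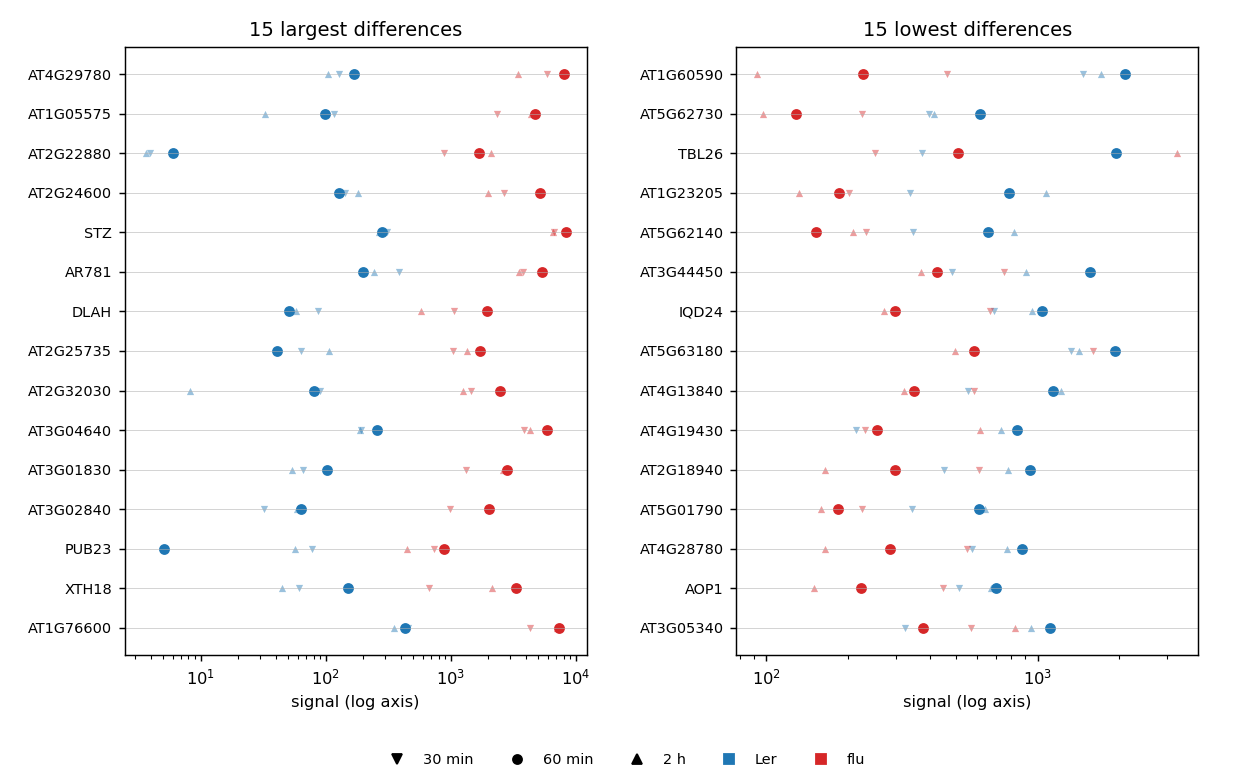
Signals on a log axis of the 15 genes with the largest (left) and the 15 with the lowest (right) difference at 60 min among brighter probe sets. Blue is Ler, red is flu, large circles are the 60 min arrays, and small triangles are the arrays of 30 min (pointing down) and 2 h (pointing up). On the left the red and blue points are apart at every time, while on the right several genes, TBL26 among them, have mixed colours.

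Transcription factor genes higher in flu came from several families. Of the 6 WRKY genes that passed the filter, 3 were at least 2-fold higher and 0 lower, and the median of the 6 was 1.33. Over all probe sets the shares were 6.12% higher and 1.44% lower. WRKY53, a regulator of leaf senescence, had 245, 209 and 123 in Ler and 2275, 2535 and 725 in flu, a difference of 3.32 at 60 min. WRKY22, which acts in immune signalling, stood at 2.74 and WRKY6, tied to senescence and defence, at 2.31. WRKY6 was apart mainly from 60 min on, with a difference of 0.58 at 30 min. WRKY47 had 0.35 and was within 2-fold.

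ORA47, an ERF gene that activates jasmonate synthesis genes, had 175, 119 and 96.2 in Ler and 385, 1359 and 473 in flu. It differed by 0.95, 3.06 and 1.84 in order of time, so the 60 min array of flu was the highest of the 6. TINY2, of the same family, had -0.21 at 60 min. Of 14 bZIP genes 2 were higher and 0 lower, not far from the shares over all probe sets (6.12% higher, 1.44% lower). The 2 higher ones act in the unfolded protein response of the endoplasmic reticulum. BZIP60 had 1022, 1320 and 688 in Ler and 3466, 5255 and 6023 in flu, a difference of 1.95. BZIP28 had 442, 447 and 582 in Ler and 898, 1271 and 1351 in flu, a difference of 1.41. Another membrane-bound member of the family, BZIP17, stood at 0.31, and the median of the 14 was 0.18.

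Calcium sensor genes were higher as well. All 7 calmodulin-like genes that passed the filter had a positive difference, where 59.0% of all probe sets had a negative one. Of the 7, 4 were past 2-fold (6.12% of all probe sets were at least 2-fold higher), and the median was 1.44. CML37 had 65.3, 143 and 35.1 in Ler and 1073, 2088 and 3107 in flu, a difference of 3.47 at 60 min. CML38 had 7.30, 89.4 and 23.5 in Ler and 478, 1186 and 1532 in flu, a difference of 3.15. CML23 and CML42 stood at 1.89 and 1.44. The neighbour of CML38 on the chromosome, AT1G76640 (CML39), had 0.54 at 60 min. Its signals there were near the floor, 4.66 in Ler and 29.5 in flu, and its difference at 2 h was 4.17. The 4 genes listed as calcium pumps and channels, all of the glutamate receptor-like family, lay between -0.60 and 0.23. None was past 2-fold, a count near the share over all probe sets (7.56%).

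U-box ubiquitin ligases that dampen immune signalling were also higher. Of the 10 U-box and ATL genes 4 were at least 2-fold higher and 0 lower, with a median of 0.83. Over all probe sets the shares were 6.12% higher and 1.44% lower. PUB23 had 77.2, 5.09 and 56.6 in Ler and 731, 888 and 448 in flu, a difference of 4.09 at 60 min. Its Ler signal of 60 min was the lowest of the 3, and on the arrays of 30 min and 2 h flu was higher by 2.62 and 2.22. PUB24 had 327, 266 and 238 in Ler and 518, 1633 and 1253 in flu, a difference of 2.41. PUB22, the close relative of PUB23, was dim, with 64.4 in Ler and 187 in flu at 60 min (1.05), a difference under 2-fold with an offset of 100 or after quantile normalization. PUB19, a ligase of the drought response, stood at 1.42, after -0.28 at 30 min and before 3.40 at 2 h.

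Some kinase and immunity genes were among the higher ones too, while the only MAP kinase that could be read, ATMPK8, stood at -0.46. The list of receptor-like kinases and proteins had 1 gene that passed the filter, BIK1. BIK1, a cytoplasmic kinase that relays signals of immune receptors, had 480, 502 and 304 in Ler and 1105, 2690 and 1620 in flu, a difference of 2.31 at 60 min. Its flu signals lay above all Ler signals. SAG101, a lipase-like partner of EDS1 in defence, had 130 in Ler and 522 in flu at 60 min (1.67). SGT1A, PTI1-4 and B120 belong to no list and were named because they were past 2-fold, so similar genes that were not past it went uncounted. SGT1A, a co-chaperone of immune receptors, had 755 and 2608 (1.72). PTI1-4, a protein kinase gene, stood at 2.19, and B120, a receptor-like kinase gene, at 2.79 from a Ler signal of 49.1.

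GRX480, a glutaredoxin that binds TGA factors in salicylate signalling, had 170, 160 and 170 in Ler and 397, 2886 and 4314 in flu. The difference was 1.02 at 30 min and 3.81 at 60 min, and the Ler arrays hardly varied. OPCL1, which activates jasmonate precursors in the peroxisome, had 442, 639 and 548 in Ler and 1598, 4087 and 6302 in flu, a difference of 2.59. JMT, which makes methyl jasmonate, had -0.06 at 60 min with 81.0 in Ler and 75.6 in flu, and 1.99 at 2 h. JRG21, a jasmonate-responsive oxygenase gene, had 1.51 in Ler, near the floor, and 60.3 in flu at 60 min.

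Of the gibberellin receptors, GID1B was apart and its relatives were not. GID1B had 98.1, 77.1 and 84.6 in Ler and 95.9, 507 and 404 in flu, so its difference was -0.02 at 30 min and 2.13 at 60 min. GID1C stood at 0.25 and GID1A at -0.05 at 60 min. Among 5 auxin response genes the median was 0.71, and none was past 2-fold: IAA18 had 0.84, GH3.3 0.81 and WES1 (GH3.5) 0.71. IAGLU, which conjugates auxin to glucose, had 348 in Ler and 838 in flu (1.16). The single ethylene gene, EIN3, stood at 0.19, and 7 genes of abscisic acid and drought had a median of 0.14 with 0 past 2-fold. Counts of 0 in lists of 5 and 7 genes are near the share over all probe sets (7.56%).

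Among chaperone genes, 4 of the cytosol were past 2-fold at 60 min and within it at 30 min. FKBP65 (AT5G48570), a heat-responsive prolyl isomerase, had 45.2, 99.5 and 247 in Ler and 47.2, 843 and 5577 in flu, with differences of 0.03, 2.58 and 4.25. Fes1A, which protects and recharges Hsp70, had 449, 513 and 608 in Ler and 350, 2472 and 8805 in flu, a difference of 2.16 at 60 min. Hop3, the Hsp70 to Hsp90 linker, and Hsp70-2 stood at 1.47 and 1.42. The 4 plastid-type or reticulum members of the list lay between -0.60 (Cpn60beta4) and 0.09 (Cpn60beta2). The list of 8 thus had 4 higher, 0 lower and a median of 0.75. Over all probe sets the shares were 6.12% higher and 1.44% lower.

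Detoxification genes were divided. UGT73B5, a glucosyltransferase of the redox response to pathogens, had 54.4, 52.2 and 4.80 in Ler and 40.9, 442 and 1423 in flu, a difference of 2.27 at 60 min. Its chromosomal neighbour UGT73B4 had 0.04 at 60 min from signals near the floor, 5.12 in Ler and 6.77 in flu, and 2.37 at 2 h. AER, an alkenal reductase that removes reactive lipid products, had 651 and 2101 (1.62). NDB2, an external NADH dehydrogenase of mitochondria, had 861 in Ler and 1840 in flu (1.05), after -0.17 at 30 min. Of 7 glutathione S-transferases, 0 were higher and GSTU27 was lower, at -1.17. Of the 23 UDP-glycosyltransferases on the list, 2 were higher and 2 lower, with a median of 0.13. That list lacks IAGLU, a glucosyltransferase gene that stood at 1.16. Cytochrome P450 genes had 1 of 9 past 2-fold, CYP71B22 (1.91), and its neighbour CYP71B23 stood at 0.54. The share past 2-fold over all probe sets was 7.56%. The counts of glutathione S-transferases and cytochrome P450s are near it, and that of UDP-glycosyltransferases is above it.

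The listed redox genes, of the ascorbate, glutathione and thioredoxin systems, lay within 2-fold. Superoxide dismutase and catalase genes were not among them and were not read. Of the 12 genes 0 were past 2-fold, a count near the share over all probe sets (7.56%). Of them 9 were negative, where 59.0% of all probe sets were, and the median was -0.30. Monodehydroascorbate reductase ATMDAR2 had the highest value, 0.83, from signals of 678, 719 and 667 in Ler and 683, 1317 and 3917 in flu. VTC4, of ascorbate synthesis, had the lowest, -0.76. Plastid members of the list lay on both sides of 0, with the ascorbate peroxidases SAPX (-0.42) and TAPX (-0.40), the glutathione reductase GR (-0.49) and the thioredoxin system genes NTRC (-0.49), TRXF2 (-0.33) and ATHM2 (-0.27) negative and TY1, a thioredoxin, at 0.40. Among the class III peroxidases, PRX71 (AT5G64120) had 284 at 30 min and 244 at 60 min in Ler against 538 and 1957 in flu, a difference of 2.77, and Prx37 stood at 1.06, a difference under 2-fold with an offset of 100 or after quantile normalization.

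Cell wall genes lay in both directions. XTH18, a xyloglucan endotransglucosylase gene, had 61.5, 150 and 44.4 in Ler and 671, 3325 and 2149 in flu, a difference of 4.07 at 60 min. XTH19, next to it, had 0.62, while EXGT-A3 and XTH32 stood at -0.89 and -0.69, and the median of the 6 was -0.10. The pectin methylesterase gene ATPMEPCRB (PME41) had 153, 270 and 334 in Ler and 1240, 1922 and 775 in flu (2.62). CSLC04, which makes the xyloglucan backbone, had 1152 and 2379 at 60 min (1.02). Of 8 expansin genes none was past 2-fold, with EXPA8 lowest at -0.98. That count is near the share over all probe sets, 7.56%.

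At membranes, TET8, a tetraspanin found on plant extracellular vesicles, had 2511, 2797 and 2182 in Ler and 8449, 9717 and 7867 in flu. Its difference was nearly constant, 1.73, 1.78 and 1.83 at the 3 times. TET9 stood at 1.67, and the tetraspanins TET10 and TET7 at -0.60 and -0.53. VPS2.1 and VPS60.1, of the complex that sorts proteins into multivesicular bodies, had 1.37 and 1.26. DTX50 (AT5G52050), a transporter of the MATE family, had 17.0, 51.0 and 14.4 in Ler and 1019, 1026 and 774 in flu, a difference of 3.41. GTR1, a glucosinolate transporter, stood at 1.05.

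The 188 lower probe sets were led by AT1G60590, with 1466, 2099 and 1711 in Ler and 463, 227 and 92.5 in flu, a difference of -2.96 at 60 min. AT5G62730 followed at -1.90, with 398, 612 and 416 in Ler against 225, 128 and 97.3 in flu. In both genes all flu signals lay below all Ler signals. Further loci without a descriptive name among the 15 lowest were AT1G23205 (-1.83), AT5G62140 (-1.81), AT3G44450 (-1.77), AT5G63180 (-1.64), AT2G18940 (-1.51), AT5G01790 (-1.49) and AT4G28780 (-1.47). AT3G44450 had a higher signal in flu at 30 min, 751 against 485, before 424 against 1566 at 60 min.

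Several lower genes with a known name act in transport, metabolism and surface lipids. CER26 (AT4G13840), of the elongation of very long fatty acids for wax, had 554, 1144 and 1220 in Ler and 581, 350 and 322 in flu, a difference of -1.58 at 60 min. WSD1, a wax ester synthase, had -1.07, under 2-fold with an offset of 100. The 3 surface lipid genes were all negative, where 59.0% of all probe sets were. NPF6.4 (AT3G21670), a member of the nitrate transporter family, had 8291 in Ler and 3321 in flu (-1.31). The vacuolar sugar transporter SWEET2 stood at -1.32 and the sucrose phosphate synthase gene ATSPS4F at -1.25, from 1711 in Ler and 693 in flu. IQD24, of a calmodulin-binding family, had -1.65, AOP1, related to glucosinolate oxygenases, -1.46, and MSRB6, a methionine sulfoxide reductase, -1.41.

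Single regulator and flavonoid genes were also among the lower ones. MYC4, a bHLH activator of jasmonate responses, had 363, 702 and 260 in Ler and 221, 274 and 223 in flu, a difference of -1.22 at 60 min and -0.18 at 2 h. The Ler signal of 60 min was the highest of the 6. Of the 9 bHLH genes on the list, which lacks PYE, MYC4 alone was past 2-fold and the median was -0.04. That count is near the share over all probe sets (7.56%). PYE, a bHLH factor of iron deficiency, had 496, 1186 and 253 in Ler and 465, 513 and 532 in flu, with -1.13 at 60 min and 0.94 at 2 h. UGT78D1, a flavonol rhamnosyltransferase, stood at -1.27 and the chalcone isomerase-like gene CHIL at -1.01. CHIL was dim, and its difference was under 2-fold with an offset of 100. The 2 other genes on the list of light signalling and flavonoids, DFR (-0.11) and UGT80B1 (-0.09), were within 2-fold.

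GIS, a zinc finger gene of trichome initiation, had 539, 695 and 315 in Ler and 266, 234 and 127 in flu, a difference of -1.39. TRY, a MYB-type repressor of trichome fate, had 390 in Ler and 200 in flu at 60 min (-0.82). These were the 2 trichome genes with a named probe set, with a summed signal of 1086 in Ler and 434 in flu. Fewer trichomes and less RNA per trichome cannot be told apart in whole leaves. The 2 guard cell genes that passed the filter, SPCH (-0.52) and FAMA (0.37), had a summed signal of 432 in Ler and 461 in flu. Mesophyll, vascular and root markers on the lists had no named probe set, and the 1 named meristem or flower marker did not pass the filter.

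Photosynthesis genes of the nucleus lay slightly lower in flu, mostly within 2-fold, as were most of all probe sets (7.56% past it). All 3 antenna genes were negative, with LHCB4.3 at -1.44, LHCB4.2 at -0.53 and LHCB4.1 at -0.19. LHCB4.3 had 2327, 2593 and 3423 in Ler against 1703, 926 and 1015 in flu. The 6 photosystem and electron transport genes, such as PSBW (-0.36) and the ATP synthase subunit ATPC1 (-0.36), were all negative with a median of -0.34 and 0 past 2-fold. The same held for 4 Calvin cycle and photorespiration genes, from SBPASE (-0.48) to RCA (-0.12), with a median of -0.36. All 8 genes of the chloroplast NDH complex and its assembly were negative with a median of -0.52, among them CRR42 with 922 in Ler and 514 in flu (-0.78). These medians stand against -0.08 for all probe sets, and after quantile normalization all 4 stayed negative, from -0.50 to -0.26. The counts of negative genes stand against 59.0% negative over all probe sets.

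Of the tetrapyrrole pathway, which FLU regulates, 9 genes passed the filter, and HEMA2 was the only one past 2-fold. That count is near the share over all probe sets (7.56%). HEMA2, a glutamyl-tRNA reductase gene at the entry of the pathway, had 135, 163 and 62.3 in Ler and 271, 572 and 588 in flu, a difference of 1.55 at 60 min. The other 8 were negative, where 59.0% of all probe sets were. These 8 ran from GSA1, the next enzyme, at -0.69 through the magnesium chelatase subunit CHLI2 at -0.57 to the methyltransferase CHLM at -0.12. Protochlorophyllide oxidoreductase PORB stood at -0.38, and the median of the 9 was -0.37. EX1, of the EXECUTER proteins that relay the singlet oxygen signal from the plastid, had 1000 in Ler and 812 in flu (-0.28). FLU had no named probe set in the annotation used, so the genotype could not be checked by its own transcript.

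The listed transcripts of the plastid genome all lay within 2-fold. For comparison, 7.56% of all probe sets were past 2-fold. Of 43 plastid-encoded photosynthesis genes 0 were past 2-fold, with a median of -0.08, the same as over all probe sets, and a range from ndhE (-0.74) to psbM (0.63). Of 27 plastid genes for transcription, translation and other functions, 0 were past 2-fold and 21 were negative, against 59.0% of all probe sets. Their median was -0.18, with rpl14 lowest at -0.99. The 27 include petN (0.34), which was also counted among the 43. Of 6 nuclear genes for plastid gene expression 5 were negative, a count not far from the share over all probe sets (59.0%). The lowest was mTERF9 (AT5G55580), at -1.03 from 520 in Ler and 228 in flu. That difference was under 2-fold with an offset of 100.

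Lists of other functions had few or no genes past 2-fold, where the share over all probe sets compared was 7.56%. Counts of 0 in lists this short are near that share. The 11 autophagy genes lay between -0.20 and 0.49, with a median of 0.27. The 8 genes of cell cycle and chromatin were all negative, where 59.0% of all probe sets were. They ran from HTB2, a histone H2B gene, at -0.75 to -0.12, with a median of -0.41 and 0 past 2-fold. The 21 housekeeping genes had 0 past 2-fold and a median of 0.03, from -0.45 (TUB6) to 0.46 (UBC16).

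**Figure D3:**
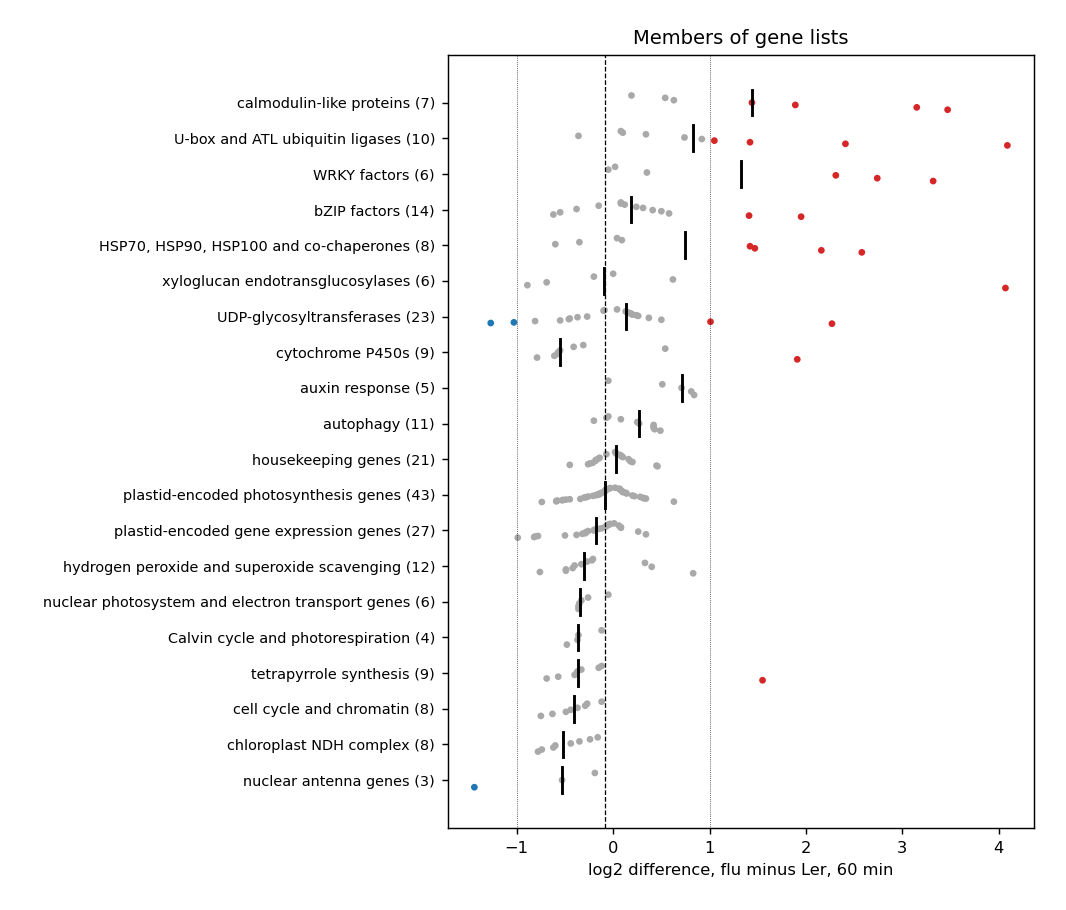
Points are genes of each list (number that passed the filter in brackets), placed by their log2 difference, flu minus Ler, at 60 min. Black bars are list medians, the dashed line is the median of all probe sets (-0.08), dotted lines mark 2-fold, and red and blue points lie past it. Calmodulin-like, U-box and WRKY genes reach to 3 and above, while nuclear genes of photosynthesis lie mostly to the left of the dashed line. The median of the plastid-encoded photosynthesis genes lies on it.

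The 60 min arrays were then set beside the other 4, which share no array with them but did enter the filter. Of the 799 higher probe sets, 343 were also at least 2-fold higher at 30 min, which is 42.9% of them and 88.2% of the 389 higher at 30 min (2.98% of all probe sets compared). At 2 h it was 656, or 82.1% of the 799 and 49.7% of the 1321 higher at 2 h (10.1% of all). Both times were 2-fold apart for 301, and neither for 101. The 799 had median differences of 0.82, 1.68 and 2.01 at the 3 times. They were chosen at 60 min, so the value at that time is a description.

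The 799 had a median signal at 60 min of 232 in Ler and 1060 in flu, and 338 of them had a Ler signal below the median of all signals. From 30 min to 2 h their levels in Ler differed by a median of -0.14.

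The 188 lower probe sets had another course. Of them 12 were also 2-fold lower at 30 min, which is 6.38% of the 188 and 22.2% of the 54 lower at that time (0.413% of all). At 2 h it was 106, or 56.4% of the 188 and 14.7% of the 719 lower at 2 h (5.50% of all). Neither time was 2-fold apart for 76. At 60 min flu was at least 2-fold below the lowest Ler array for 41 of them (0.314% of all). It was at least 2-fold above the highest for 627 of the 799 (4.80% of all). In the 188, Ler at 60 min stood a median of 0.25 above the mean of the other Ler arrays, against 0.04 in the 799. They too were chosen at 60 min, and the part of that single Ler array in their difference was not tested. In Ler, 155 of the 188 were higher at 2 h than at 30 min, which is 82.4% where all probe sets had 47.2%, with a median of 0.49. In flu, 130 were lower at 2 h than at 30 min, or 69.1% against 64.9% of all probe sets, with a median of -0.43.

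**Figure D4:**
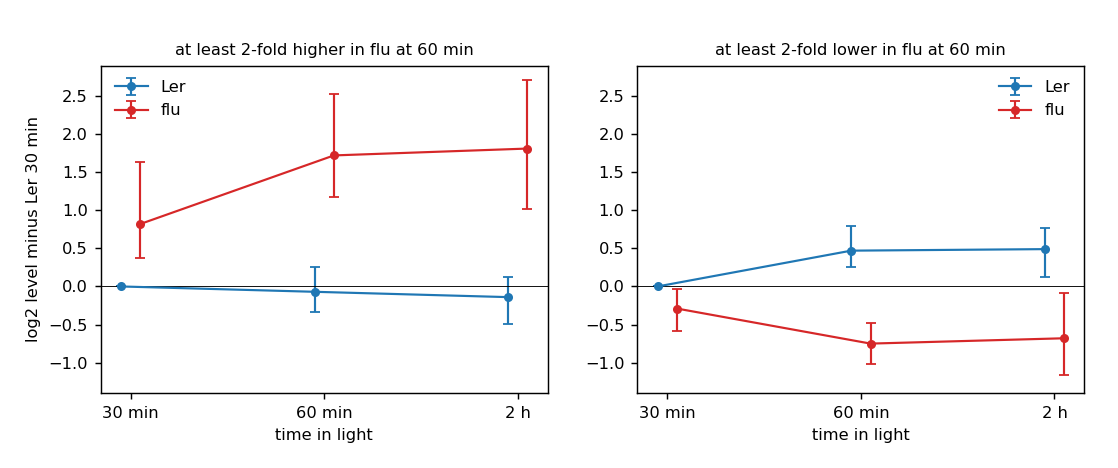
Median log2 level, relative to Ler at 30 min, of the 799 probe sets higher (left) and the 188 lower (right) in flu at 60 min, by time in light; bars span the quartiles over probe sets, which are not replicates. In the left panel Ler stays near 0 while flu stands at 0.82, 1.72 and 1.81. In the right panel Ler is at 0.47 and flu at -0.75 at 60 min.

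A few genes had a difference that was largest at 60 min. AT3G15450 had 2559, 531 and 2101 in Ler and 5750, 4694 and 3522 in flu, so that its difference of 3.03 at 60 min, against 1.15 and 0.73, went with a low Ler signal at that time. AT2G19710 was like it, with 312, 184 and 312 in Ler and 803, 1263 and 453 in flu (2.49). AT2G18210 had level Ler signals, 262, 262 and 280, and 1145, 2776 and 1062 in flu, so here the flu array of 60 min stood out (3.18). DLAH and PUB23 completed these 5.

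The opposite pattern, a difference lowest at 60 min, was clearest in TBL26, of a family that acetylates wall polymers. It had 376, 1941 and 1944 in Ler and 251, 510 and 3270 in flu, with differences of -0.50, -1.83 and 0.74. The flu signal was thus low at 60 min and the highest of the 6 at 2 h. AT4G19430 (-1.55 at 60 min, -0.24 at 2 h) and AT3G05340 (-1.44 and -0.18) had a similar course, and AT1G43860 (-1.07) and AT3G28940 (-0.66) a smaller one. With 1 array a time, these courses rest on single values.

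The genotype difference was tested on the arrays that did not enter the comparison, those of 30 min and 2 h, with limma over all 13062 probe sets. Of these, 75 (0.574%) were higher in flu at an adjusted p under 0.05 and 0 were lower, and all 75 were among the 799. At an unadjusted p under 0.05 it was 713 higher (5.46%) and 481 lower (3.68%), which held 535 of the 799 and 55 of the 188. The fit has 1 residual degree of freedom, which holds the change of the difference between 30 min and 2 h as well as noise. Of 50 probe sets simulated at each log2 difference of 1, 2 and 3 it recovered 2.00%, 34.0% and 72.0%, with no larger share at 4. It also called 9 unchanged ones, so some calls at this threshold can be false. The simulated differences were equal at both times, while the 799 had medians of 0.82 at 30 min and 2.01 at 2 h. Recovery of differences that change with time was not simulated. A missing call thus says little about a gene with a small difference, or with a large one that changes with time. With an offset of 100, without a filter, or without a trend in the variance prior 0 were called higher.

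Among the genes described above, STZ differed on those arrays by 4.32 (SE 0.26, adjusted p = 0.0275 in limma) and AT4G29780 by 4.78 (SE 0.28, adjusted p = 0.0275). DTX50 (AT5G52050) differed by 3.84 and AR781 by 3.37, both with adjusted p = 0.0275 in limma. CML38 (3.82, adjusted p = 0.0366), CML37 (4.25, adjusted p = 0.0435), WRKY53 (2.57, adjusted p = 0.0456), DLAH (2.79, adjusted p = 0.0329) and TET8 (1.78, adjusted p = 0.0375) passed as well. PUB23 (2.42, adjusted p = 0.0519) and XTH18 (3.62, adjusted p = 0.0616) did not. Genes whose difference was much larger at 2 h than at 30 min, such as GRX480 (2.67, adjusted p = 0.380) and FKBP65 (AT5G48570; 2.14, adjusted p = 0.576), were far from the threshold, and so was AT1G60590 (-2.59, adjusted p = 0.183).

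Probe sets of the same gene gave a check within the arrays. For 57 genes with 2 probe sets (4 genes with more were left out) the median gap between the differences at 60 min was 0.24. For 1 gene it reached 2-fold. Only 2 of these genes had a probe set past 2-fold, and in 0 were both past it, so the check bears mainly on genes with small differences. Cross-hybridisation between close relatives, such as Hsp70-2 and other Hsp70 genes, was not tested.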

How the data were processed

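Values are MAS5 signals of 6 ATH1 arrays, deposited by the authors as the linear intensity of each probe set. MAS5 is named by the submitters' processing notes, and its version is not given in the sources used here. The 2% trimmed mean was 500.0 on every deposited array. All columns were used (0 unused), and 64 control probe sets were left out.

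Genes were named through the platform annotation (1 gene for 13513 of 22810 probe sets, several for 503, none listed for 8794) and a RefSeq table of assembly TAIR10.1, which matched 13436 and served for names only. Each array was set to a 2% trimmed mean of 500, put on log2(signal + 50) and filtered at the median signal. The 13062 left held 6927 probe sets of 6862 single named genes, 5828 of them known by locus alone, so gene lists are incomplete.

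The difference at 60 min has no test. The arrays of 30 min and 2 h entered a fit of genotype plus time (limma 3.58.1, R 4.3.3) with a variance trend and Benjamini-Hochberg adjustment over all probe sets (threshold 0.05), a step tested on simulated data. Its p-values rest on the spread between 2 times and on no replicates. Tables and plots used Python 3.11.15, pandas 2.3.3, numpy 2.4.6, scipy 1.17.1 and matplotlib 3.10.9.

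Genes were named by rule: the 15 largest and 15 smallest differences and the 5 highest and 5 lowest at 60 min relative to the other times, among single-gene probe sets whose brighter 60 min signal reached the 75th percentile (590), up to 4 genes a list, and 2 on each side of the filter. Genes with a descriptive symbol at least 2-fold apart, and further members of lists, were added after their values were seen. The 63 lists (50 with a gene that passed) match gene symbols and synonyms, with 25 corrections made by hand after values had been seen. The comparison, the lists and the rule were chosen with earlier results of these data known. Alternatives were offsets of 16 and 100, quantile normalization, no rescaling, other filters, other sizes of difference and a variance prior without trend. Promoter motifs were not analysed here, since no promoter sequence was given.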

Additional observations from a re-analysis of the deposited data

Results flagged for a closer look

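For 4 named genes the difference between flu and Ler at 60 min was past 2-fold in one direction and that at another time past 2-fold in the other. This change of direction was not tested, since each time has 1 array a genotype.

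UGT76E11, a glycosyltransferase gene, had -1.03 at 60 min and 1.21 at 2 h, a change of 2.24, with signals of 317, 576 and 365 in Ler and 205, 257 and 909 in flu. AT3G16330 had -1.24 at 60 min and 2.67 at 2 h, a change of 3.90, with 181, 143 and 19.0 in Ler and 80.9, 31.6 and 388 in flu. AT3G29970 had a positive difference at 60 min and -1.34 at 2 h, a change of -2.64, with 195, 52.3 and 196 in Ler and 269, 202 and 46.9 in flu. AT1G24095 had 1.18 at 60 min and -1.11 at 30 min, which is -2.29 relative to 60 min, with 77.4, 10.7 and 5.90 in Ler and 9.11, 87.5 and 451 in flu. The last 3 of these involve signals below the median of all signals on several arrays. With an offset of 100 the differences of all 4 at 60 min were under 2-fold, at -0.92, -0.88, 0.99 and 0.76 in the order given, so none of them was then past 2-fold at that time. Over all probe sets, named or not, 12 had such a change of direction.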

How the results depend on the processing

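No paired analysis was possible because the labels carry no replicate numbers and each genotype and time has 1 array, so no replicate could be left out; the genotypes are matched by time alone, which the fit on the arrays of 30 min and 2 h takes in. Offsets, scaling and filters left the counts at 60 min within 1.5 times of 799 higher and 188 lower (682 to 955 and 127 to 267), while a size of 1.5-fold gave 1373 and 1139 and one of 4-fold gave 292 and 5. On the arrays of 30 min and 2 h, 75 to 99 probe sets were called higher and 0 lower, except with an offset of 100, no filter, or a variance prior without trend, where limma called 0 higher and 0 lower (677, 842 and 706 higher and 457, 798 and 284 lower at an unadjusted p under 0.05); the cause was not tested. Of the single genes and list medians, 57 values under an alternative moved by more than 0.30, the robust SD between the Ler arrays of 30 and 60 min (20 with an offset of 16, 21 with one of 100, 8 without a filter and 8 with the stricter one). The sign of a list median changed with a filter for 7 lists, among them the UDP-glycosyltransferases and the mitochondrial genes, and for none with an offset or scaling. Planned shares of promoters with a motif and their alternatives were not run, since no promoter sequences were given. Signals near the floor, such as those of AT2G22880 in Ler, limit the precision of a difference.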

Other observations

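Genes outside the lists, chosen here after their values were seen, add to the picture at 60 min. EXO, which promotes cell expansion, had 1605, 904 and 1456 in Ler and 3831, 3124 and 831 in flu, with differences of 1.23, 1.73 and -0.77. ARL, a growth regulator of the ARGOS family, had 506, 464 and 413 in Ler and 1890, 1681 and 2108 in flu, a difference of 1.75 at 60 min. COR27, a cold- and clock-regulated gene, had 221, 97.8 and 46.7 in Ler and 723, 355 and 237 in flu, so it was lower at each later time in both genotypes while the difference stayed at 1.51, 1.45 and 1.57. CCR2 (AT1G80820), a cinnamoyl-CoA reductase of phenolic defence, was near the floor in Ler at 11.5, 8.57 and 8.49 and had 5.70, 237 and 1332 in flu, with differences of -0.14, 2.29 and 4.56. SRC2 had 3545, 3661 and 2192 in Ler and 8196, 11757 and 11280 in flu (1.67 at 60 min). THI2.1, a thionin gene, had a difference at 60 min alone, 1.63, with -0.03 and -0.48 at the other times, and its Ler signals of 143, 61.6 and 180 span the flu signals of 138 and 115 at those times.

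On the lower side, GT2, a trihelix transcription factor gene, had 282, 320 and 391 in Ler and 371, 112 and 108 in flu, with differences of 0.34, -1.19 and -1.48. Mfl1, a mitoferrin-like transporter, had 862, 1018 and 920 in Ler and 656, 433 and 374 in flu (-1.15 at 60 min).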
